A study of Homo sapiens with 30 samples.

Results

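The 10 genes described here make, break down or control the polyamines. They are ARG2, ODC1, AMD1, SRM and SMS (synthesis), SAT1, SMOX and PAOX (breakdown and back-conversion) and OAZ1 and AZIN1 (control). Members were the rows carrying these gene symbols. All 10 were found in each of the 2 deposited tables, out of 26475 genes per table. All 10 passed the filter on low counts, which kept 14570 genes in the first table and 14638 genes in the second. Bulk RNA sequencing of sublines of the human breast cancer line MDA-MB-231 gave 30 libraries in 10 groups of 3. The series title places them in work on exchange of soluble metabolites between clones.

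The first table holds lineages 22, 35 and 45, which the labels call wild-type lineages derived from MDA-MB-231, in 2 conditions. In isolation each grew by itself for about 24 h in RPMI medium with 10% dialyzed serum and 2 mM glutamine. In co-culture each was recovered by FACS after 15 days among 6 members in the same medium, with passage through a bottleneck every 3 days. The second table holds lineages 03, 10, 13 and Pop in isolation, and the labels do not say what Pop is. No group received a drug, a gene edit or another treatment. Isolated cells were lysed in TRIzol and sorted cells were extracted with another column kit, so co-culture, time in culture, sorting and RNA extraction cannot be told apart. The labels do not state whether replicates are separate cultures, so p-values measure the spread between these libraries, which may be technical. In bulk RNA, fewer cells of a type and less RNA per cell cannot be told apart.

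Putrescine, spermidine and spermine are small positively charged molecules that bind nucleic acids and are needed for growth. Arginase releases ornithine from arginine, ornithine decarboxylase turns ornithine into putrescine, and spermidine and spermine synthases add aminopropyl groups donated by decarboxylated S-adenosylmethionine. Acetylation by SAT1 marks polyamines for export or for oxidation, and antizyme (OAZ1) sends ornithine decarboxylase to the proteasome unless the antizyme inhibitor AZIN1 binds it. Synthesis is commonly raised in tumors, and MYC, which binds the motif CACGTG, is a known activator of ODC1 and of several other genes of synthesis.

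Estimated counts summed to between 29.8 M and 38.8 M (mega-counts) per library in the first table and between 28.1 M and 35.4 M in the second. Levels are given as CPM, the count scaled to library size after TMM normalization. They can be compared between libraries of a table but not between genes, because CPM was not divided by gene length here. The line's usual mesenchymal genes were high in every library (VIM, 2227 to 6409 CPM, and CD44, 757 to 2992 CPM) and ESR1 was at most 0.0962 CPM. Of the other genes listed beforehand as low or absent, PGR was at most 0.303 CPM and CDH1 at most 2.17 CPM. The rest of that list was detected in every library, with EPCAM at 4.33 to 18.5 CPM, GATA3 at 5.57 to 24.5 CPM and ERBB2 at 69.2 to 104 CPM. Co-culture libraries of lineage 35 correlated less with isolated 35 (mean r = 0.924 over 14570 genes) than with isolated 45 (0.964) or isolated 22 (0.950), whereas those of lineages 22 and 45 correlated best with their own isolated libraries (0.962 and 0.970). For co-culture 22 the margin was small, with a mean r of 0.958 with isolated 45 and overlapping ranges (0.956 to 0.969 and 0.951 to 0.964). Isolated 35 also correlated least of the isolated groups with co-culture 22 (0.921) and co-culture 45 (0.9275). Values for lineage 35 across conditions therefore compare libraries labelled 35. Of 4 tested leukocyte genes, 4 were higher from co-culture in lineage 35, whereas 3 were lower in lineage 22 and 2 were lower in lineage 45. The sum of the list of 6 ran from 10.8 to 26.9 CPM in isolated 35 and from 67.6 to 74.0 CPM in its co-culture libraries, and LAPTM5 alone made up most of it (10.4 to 26.5 CPM and 65.8 to 71.3 CPM). PTPRC was at most 1.27 CPM in co-culture 35 and CD3E at most 0.0286 CPM in any library. Of 3 tested endothelial genes, 2 were higher from co-culture in lineage 35, 2 were lower in lineage 22 and none was called in lineage 45, and their list of 4 summed to no more than 15.7 CPM in any library of the first table. Of 3 tested fibroblast genes, 2 were lower in lineage 22, 1 in lineage 35 and 2 in lineage 45. Beside these marker counts, 27% of all genes tested were called higher and 30% lower from co-culture in lineage 22. The shares were 32.7% and 32.9% in lineage 35 and 18.6% and 23.2% in lineage 45. In the first table the nuclear RNA MALAT1 averaged between 149 and 302 CPM in isolation and between 14.3 and 30.9 CPM from co-culture, and in the second, all isolated, between 192 and 461 CPM. The part of these shifts in the polyamine gene results was not tested.

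Start-site windows of 300 bases (250 before and 50 after the start) were available in RefSeq GRCh38.p14 for 7 of the 10 genes, in 10 windows. They were searched on both strands for CACGTG, a motif bound by MYC and related factors, and for TGACGTCA, the motif of cyclic AMP response element binding proteins. Both motifs read the same on either strand, and no match overlapped another. CACGTG occurs in 7.26% of all 35116 such windows and TGACGTCA in 1.85%. SRM holds CACGTG 199 bases before its start. The window of a downstream ODC1 start holds it 29 bases before the start and again at base 6 of the transcript. ARG2 holds TGACGTCA 172 and 64 bases before its start. The stretches below are the parts of these windows before the RefSeq start and outside annotated exons (GENCODE v29), so they leave out the second match of ODC1, which lies after the start, and the second of ARG2, which lies in an annotated exon. They are shown 5′ to 3′ on the gene's strand with the motif in capitals. They are printed because ARG2 and ODC1 are the synthesis genes that rose from co-culture in every lineage, while SRM holds the same motif as ODC1 and moved both ways. A match describes letters, not binding. The ARG2 stretch is chr14:67619670-67619797 on the plus strand, the ODC1 stretch is chr2:10448013-10448120 on the minus strand, between annotated exons of ODC1, and the SRM stretch is chr1:11060025-11060268 on the minus strand.
ARG2: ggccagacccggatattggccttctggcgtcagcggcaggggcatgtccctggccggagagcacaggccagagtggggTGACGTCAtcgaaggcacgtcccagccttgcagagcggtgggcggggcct
ODC1: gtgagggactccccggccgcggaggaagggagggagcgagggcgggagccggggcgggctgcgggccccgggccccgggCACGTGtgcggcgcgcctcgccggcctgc
SRM: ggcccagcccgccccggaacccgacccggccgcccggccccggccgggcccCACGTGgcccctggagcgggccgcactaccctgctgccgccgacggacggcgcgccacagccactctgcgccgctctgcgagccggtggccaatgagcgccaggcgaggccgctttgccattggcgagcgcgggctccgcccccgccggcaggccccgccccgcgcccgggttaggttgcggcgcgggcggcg

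The first question was how the polyamine genes differed between cells from co-culture and cells grown alone. A gene is called changed here at an adjusted p below 0.05, from edgeR's quasi-likelihood test with Benjamini-Hochberg adjustment over all genes tested in the table. In lineage 22, 8 members changed, 4 higher and 4 lower, beside 56.9% of all genes tested (27% higher and 30% lower). In lineage 35, 9 members changed, 7 higher and 2 lower, beside 65.5% of all genes (32.7% higher and 32.9% lower). In lineage 45, 6 members changed, all higher, beside 41.8% of all genes (18.6% higher and 23.2% lower). These shares are large in the whole transcriptome, so a count of changed members near them is no result about polyamine genes. ARG2, ODC1 and OAZ1 were called higher in all 3 lineages (3 of 10 members, beside 7.77% of all genes) and no member was called lower in all 3 (10.6% of all genes). With lineage 35 set aside, SRM joined them as higher in both 22 and 45 (4 of 10 members, beside 1870 of 14570 genes). No member was lower in both, beside 2391 genes. The median log2 change of the 10 members was 0.12 in lineage 22, 0.45 in lineage 35 and 0.30 in lineage 45, beside -0.04, 0.01 and -0.03 over all genes tested.

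**Figure D1:**
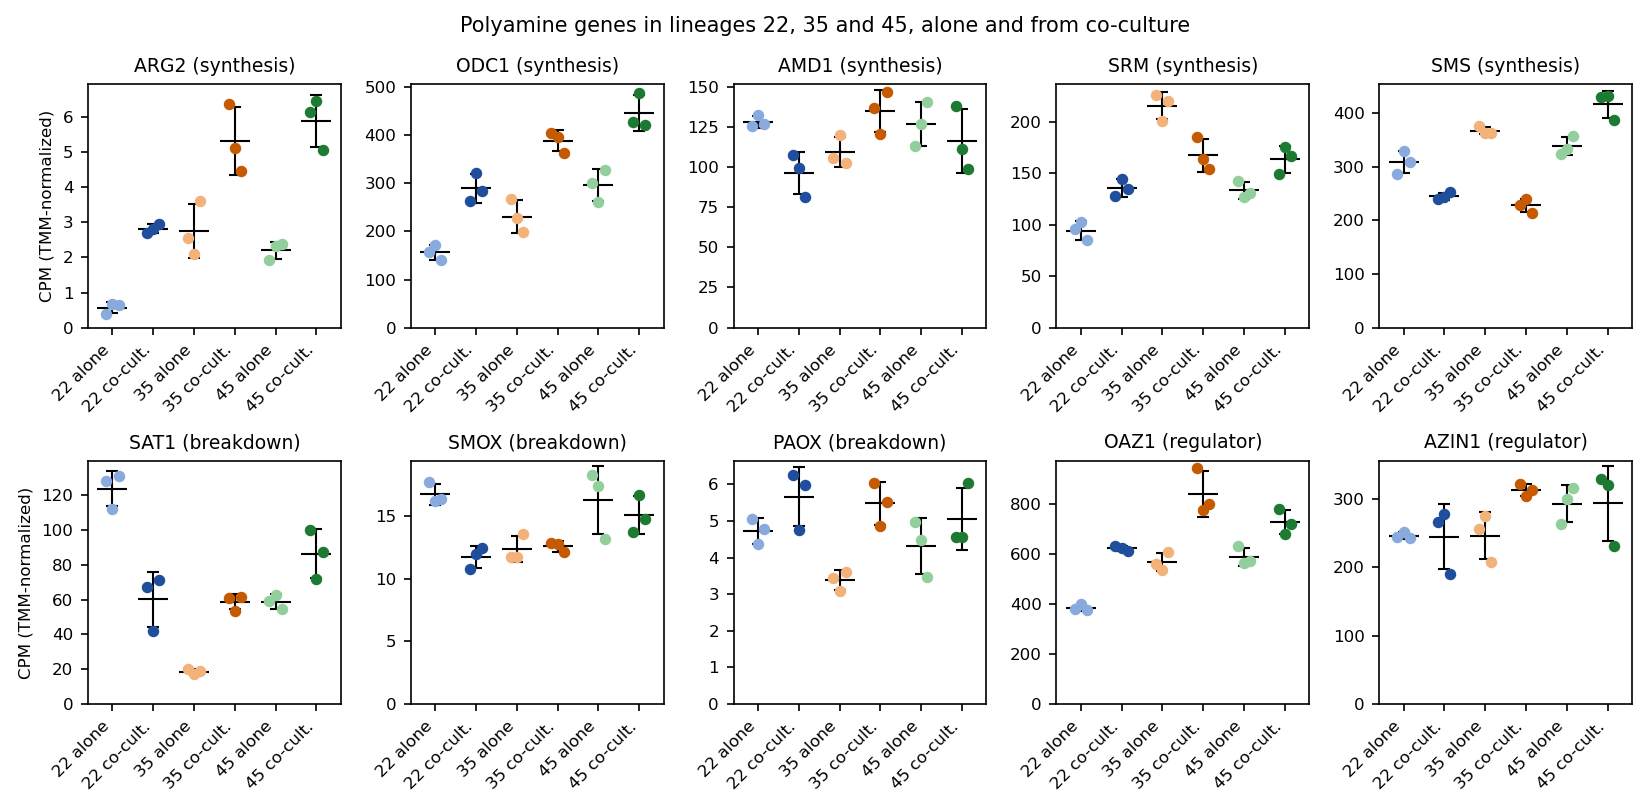
Levels (CPM, TMM-normalized, axes from 0) of the 10 polyamine genes in each library of lineages 22, 35 and 45. Points are libraries in replicate order, horizontal lines are means and error bars are SD (n = 3). ARG2, ODC1 and OAZ1 sit higher from co-culture than alone in each lineage, and SAT1 ranges from 17.1 CPM in isolated 35 to 131 CPM in isolated 22.

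ARG2, the mitochondrial arginase that supplies ornithine (chromosome 14, 67619798 to 67651720, GRCh38), rose from co-culture in all 3 lineages and had the widest range of the 10. In lineage 22 its level was 0.382, 0.673 and 0.654 CPM in isolation and 2.70, 2.81 and 2.96 CPM from co-culture. In lineage 35 it was 2.55, 2.11 and 3.61 CPM in isolation and 6.38, 5.13 and 4.46 CPM from co-culture. In lineage 45 it was 1.93, 2.32 and 2.38 CPM in isolation and 6.14, 6.47 and 5.07 CPM from co-culture. Every co-culture library was above every isolated library of its lineage. The fitted log2 change was 2.30 ± 0.24 (SE) in lineage 22, a 4.93-fold rise (adjusted p = 2.11e-07). It was 0.95 ± 0.19 in lineage 35 (adjusted p = 2.31e-04) and 1.41 ± 0.19 in lineage 45 (adjusted p = 1.27e-05). Isolated 22 stood below all other groups, and the 2 highest groups, co-culture 35 and 45, overlapped each other. The highest group mean was 10.3 times the lowest. ARG2 is a gene of low count in these libraries, and it overlaps VTI1B on the opposite strand. The kit keeps strand, but whether counting used it is not given in the sources used here.

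ODC1, the rate-limiting decarboxylase that makes putrescine (chromosome 2, 10439968 to 10448504), rose in all 3 lineages as well. In lineage 22 it was 156, 171 and 142 CPM in isolation and 263, 322 and 285 CPM from co-culture. In lineage 35 it was 268, 227 and 198 CPM in isolation and 406, 397 and 364 CPM from co-culture. In lineage 45 it was 302, 262 and 328 CPM in isolation and 428, 488 and 422 CPM from co-culture. The groups did not overlap within any lineage. The log2 changes were 0.89 ± 0.11 in lineage 22 (adjusted p = 1.76e-06), 0.75 ± 0.11 in lineage 35 (6.09e-06) and 0.59 ± 0.11 in lineage 45 (3.10e-04). Isolated 22 was again the lowest group and co-culture 45 the highest, while co-culture 22 overlapped both isolated 35 and isolated 45. The test of a difference in response between lineages did not pass for ODC1 (interaction adjusted p = 0.232). A pairwise difference between the responses was no larger than 0.31 ± 0.16 (22 against 45, adjusted p = 0.195).

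AMD1, the S-adenosylmethionine decarboxylase that provides aminopropyl groups, changed little and not one way. Its level lay between 81.6 and 147 CPM in all 18 libraries, and each group overlapped the next in order of mean. It fell from co-culture in lineage 22, from 125, 132 and 127 CPM to 107, 99.2 and 81.6 CPM (log2 change -0.41 ± 0.12, adjusted p = 0.00600). In lineage 35 it was called higher (0.30 ± 0.12, adjusted p = 0.0319), but the call was lost without isolated 35 replicate 1 (0.0890) or 3 (0.107), or without co-culture 35 replicate 1 (0.0730) or 3 (0.115). In lineage 45 the change was -0.13 ± 0.12 (adjusted p = 0.414).

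SRM, spermidine synthase (chromosome 1, 11054584 to 11060024), moved in opposite directions. SRM in lineage 22 was 95.4, 103 and 84.7 CPM in isolation and 128, 144 and 134 CPM from co-culture. SRM in lineage 35 was 226, 201 and 219.8 CPM in isolation and 185, 163 and 154 CPM from co-culture. SRM in lineage 45 was 143, 127 and 131 CPM in isolation and 149, 175 and 167 CPM from co-culture. Within each lineage the 2 conditions did not overlap. SRM rose in lineage 22 (0.52 ± 0.09, adjusted p = 7.34e-05) and fell in lineage 35 (-0.37 ± 0.09, adjusted p = 0.00144). It was called higher in lineage 45 (0.29 ± 0.09, adjusted p = 0.0133), a call lost without isolated 45 replicate 2 (0.0627) or co-culture 45 replicate 2 (0.0666). The isolated levels spanned a wider range than the co-culture levels, with isolated 22 the lowest and isolated 35 the highest of the 6 groups.

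SMS, spermine synthase (chromosome X, 21940573 to 21994835), also split by lineage. SMS in lineage 22 was 287, 329 and 309 CPM in isolation and 240.1, 242 and 252 CPM from co-culture. SMS in lineage 35 was 375, 364 and 363 CPM in isolation and 229, 239.8 and 214 CPM from co-culture. SMS in lineage 45 was 324, 332 and 357 CPM in isolation and 429.5, 432 and 387 CPM from co-culture. No conditions overlapped within a lineage, and co-culture 45 was the only co-culture group above its isolated libraries. SMS fell in lineage 22 (-0.33 ± 0.07, adjusted p = 6.70e-04) and in lineage 35 (-0.69 ± 0.07, adjusted p = 7.13e-08). It rose in lineage 45 (0.30 ± 0.07, adjusted p = 0.00254).

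SAT1, the acetyltransferase that starts polyamine breakdown (chromosome X, 23783173 to 23786226), fell in one lineage and rose in the others. In lineage 22 it was 128, 112 and 131 CPM in isolation and 67.4, 41.9 and 71.2 CPM from co-culture. In lineage 35 it was 20.2, 17.1 and 18.7 CPM in isolation and 61.2, 53.7 and 61.6 CPM from co-culture. In lineage 45 it was 59.4, 62.7 and 54.5 CPM in isolation and 99.9, 71.7 and 87.5 CPM from co-culture. Every pair of conditions was separate, with lineage 22 lower from co-culture and the others higher. SAT1 fell 2.06-fold in lineage 22 (log2 change -1.04 ± 0.15, adjusted p = 2.23e-05). It rose 3.15-fold in lineage 35 (1.66 ± 0.16, adjusted p = 7.60e-08) and 1.47-fold in lineage 45 (0.55 ± 0.15, adjusted p = 0.00780). The group means in isolation ran from 18.7 to 124 CPM and those from co-culture from 58.8 to 86.4 CPM.

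The oxidases gave smaller changes. SMOX, which oxidizes spermine to spermidine, was called in lineage 22 alone, where it fell from 17.7, 16.2 and 16.3 CPM to 10.8, 11.96 and 12.5 CPM (log2 change -0.51 ± 0.12, adjusted p = 9.17e-04). In lineages 35 and 45 its conditions overlapped, with log2 changes of 0.03 ± 0.12 (adjusted p = 0.851) and -0.11 ± 0.11 (adjusted p = 0.473), and the first of these was -0.01 without isolated 35 replicate 1 or 2. PAOX, the peroxisomal oxidase of acetylated polyamines, was called in lineage 35 alone. There it was 3.45, 3.08 and 3.61 CPM in isolation and 6.05, 4.87 and 5.53 CPM from co-culture (0.70 ± 0.16, adjusted p = 7.70e-04). Its differences in lineages 22 (0.26 ± 0.16, adjusted p = 0.167) and 45 (0.23 ± 0.16, adjusted p = 0.257) did not pass, and its responses did not differ between lineages by test (interaction adjusted p = 0.134). PAOX overlaps AL360181.3, a protein-coding model on the same strand, so its counts are uncertain where reads were split.

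OAZ1, the antizyme that binds ornithine decarboxylase (chromosome 19, 2269509 to 2273490), also rose in all 3 lineages. OAZ1 in lineage 22 was 379, 397 and 374 CPM in isolation and 629.9, 624 and 609.9 CPM from co-culture. OAZ1 in lineage 35 was 560.3, 534 and 607 CPM in isolation and 941, 775 and 797 CPM from co-culture. OAZ1 in lineage 45 was 629.6, 563 and 573 CPM in isolation and 777, 680.1 and 720.2 CPM from co-culture. Conditions did not overlap in any lineage, and isolated 22 was the lowest group. The log2 changes were 0.70 ± 0.08 in lineage 22 (adjusted p = 8.98e-07), 0.56 ± 0.08 in lineage 35 (5.26e-06) and 0.30 ± 0.08 in lineage 45 (0.00567). OAZ1 overlaps JSRP1 on the opposite strand and AC005258.1 on the same strand.

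AZIN1, the antizyme inhibitor that frees ornithine decarboxylase, was not called in lineages 22 and 45. Its log2 change was -0.01 ± 0.14 in lineage 22 and 0.00 ± 0.14 in lineage 45 (adjusted p = 0.961 and 0.996), with the sign turning under other settings. It was called higher in lineage 35 (0.35 ± 0.14, adjusted p = 0.0371), from 256, 275 and 207 CPM to 322, 304 and 313 CPM. That call held only without isolated 35 replicate 2. It was lost without isolated 35 replicate 1 (0.0551) or 3 (0.172), without co-culture 35 replicate 1 (0.0904), 2 (0.0560) or 3 (0.0630), and with no filter on low counts (0.0615).

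**Figure D2:**
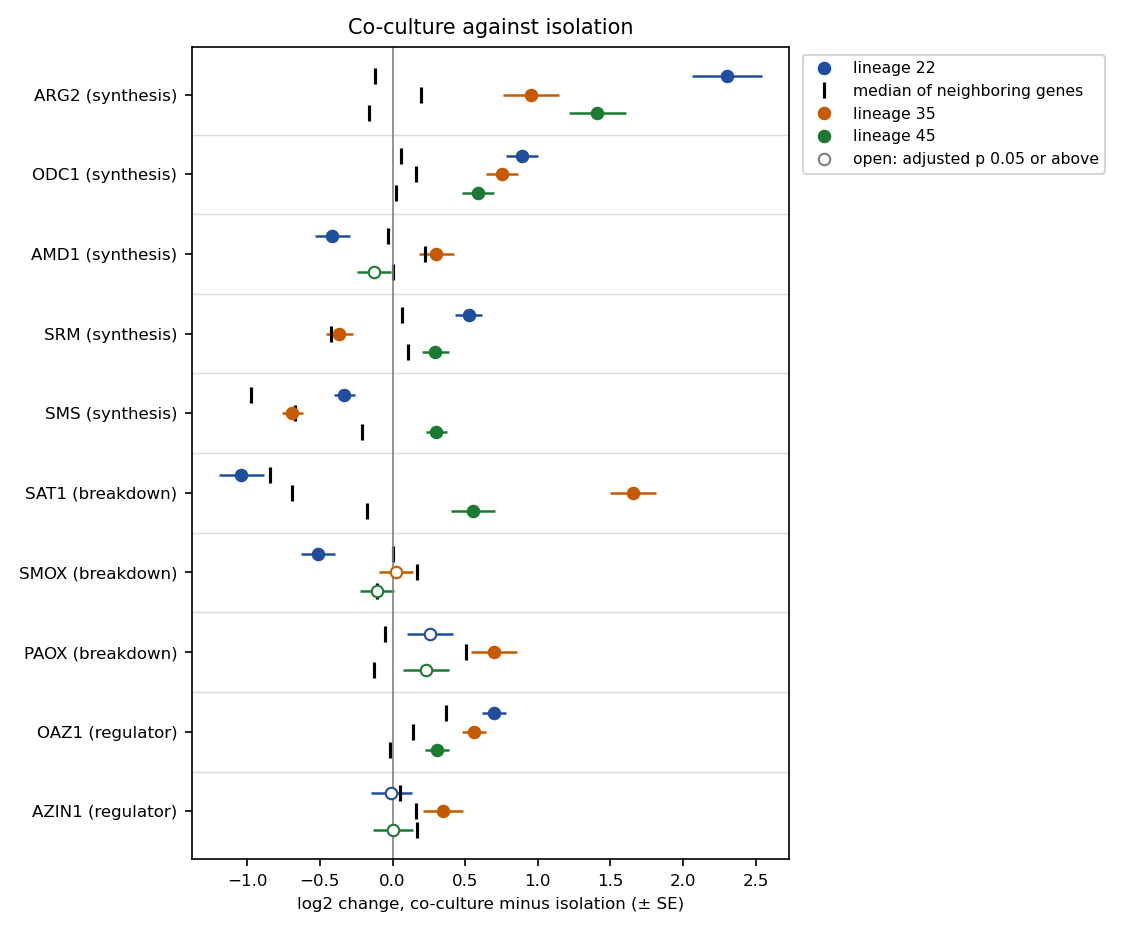
Log2 change from isolation to co-culture of each polyamine gene, with SE from the edgeR fit, in lineages 22, 35 and 45 (n = 3 per group); filled circles passed an adjusted p of 0.05 and open ones did not. Black ticks are the median log2 change of the nearest tested protein-coding genes. ARG2, ODC1 and OAZ1 lie to the right of 0 in all 3 lineages, while SAT1 runs from -1.04 to 1.66.

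Whether co-culture shifted a gene by unlike amounts in the 3 lineages was tested with the interaction of lineage and condition. It passed for 7 of the 10 members, beside 55.2% of all genes. SAT1 (adjusted p = 5.98e-08), SMS (3.42e-07) and SRM (1.94e-05) had the smallest values, followed by ARG2 (0.00374), AMD1 (0.00436), OAZ1 (0.0198) and SMOX (0.0212). The SMOX result was lost without isolated 22 replicate 1 (0.0619) or co-culture 22 replicate 1 (0.0622), and the OAZ1 result without isolated 45 replicate 1 (0.0633) or co-culture 45 replicate 2 (0.0564). Between lineages 22 and 35, 6 members responded differently (beside 49.6% of all genes, 24.2% higher and 25.4% lower), SAT1 by -2.70 ± 0.22 on the log2 scale (adjusted p = 1.82e-08) and ARG2 by 1.35 ± 0.31 (0.00122). Between lineages 22 and 45, 3 members did (beside 17.3%, 9.25% higher and 8.08% lower). These were SAT1 (-1.60 ± 0.22, adjusted p = 9.71e-05), SMS (-0.63 ± 0.10, adjusted p = 2.89e-04) and OAZ1 (0.39 ± 0.12, adjusted p = 0.0228). Fitted without the libraries labelled 35, these 3 and ARG2 (0.90, adjusted p = 0.0339, and 0.0540 with those libraries) were called, beside 16% of all genes. The OAZ1 difference was lost without isolated 22 replicate 1 (0.0521) or 3 (0.0566), isolated 45 replicate 1 (0.0693) or co-culture 45 replicate 2 (0.0578). Between lineages 35 and 45, 4 members differed (beside 42.3%, 22.8% higher and 19.5% lower), among them SMS by -0.99 ± 0.10 (adjusted p = 1.39e-07) and SAT1 by 1.10 ± 0.22 (5.65e-04). SRM differed there by -0.66 ± 0.13 (2.86e-04). The call of AMD1 there (0.43 ± 0.17, adjusted p = 0.0465) was lost without any of 8 of the 12 libraries (adjusted p from 0.0740 to 0.128). Those were isolated and co-culture 35 replicates 1 and 3, and isolated and co-culture 45 replicates 2 and 3. These comparisons of responses share libraries.

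Neighboring genes served as a reference for shifts shared by a whole region. For each member the median log2 change of the 50 nearest tested protein-coding genes was taken, 25 on either side (28 or 29 for PAOX, near a chromosome end). SMS and SAT1 lie near each other on the X chromosome, where the neighbors of SMS had medians of -0.97 in lineage 22, -0.67 in lineage 35 and -0.21 in lineage 45 from co-culture. The neighbors of SAT1, many of them shared, had -0.84, -0.69 and -0.18. The fall of SMS in lineage 35 (-0.69) was close to its neighbors' median, whereas its rise in lineage 45 went the other way. The fall of SAT1 in lineage 22 (-1.04) was near the median of its neighbors, and its rise in lineage 35 (1.66) was opposite to theirs. SRM in lineage 35 (-0.37) was beside a neighbor median of -0.42, and PAOX in lineage 35 (0.70) beside 0.50. For ARG2 and ODC1 the neighbor medians lay between -0.16 and 0.19 in the 3 lineages, and for OAZ1 they were 0.37 in lineage 22, 0.14 in lineage 35 and -0.02 in lineage 45. For the response of 22 against 45, the neighbor medians were -0.67 for SMS and 0.41 for OAZ1, close to the members' -0.63 and 0.39. For SAT1 (-1.60) the median was -0.65. For the response of 35 against 45 the medians were -0.46 for SRM (-0.66), -0.54 for SMS (-0.99), 0.18 for AMD1 (0.43) and -0.58 for SAT1 (1.10). The part of such regional shifts in the members' changes and response differences was not tested.

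A list of 29 other genes around the pathway was counted too, covering ornithine supply, methionine recycling, further regulators, transport and hypusine formation. Of these, 25 passed the filter on low counts, and ARG1, GATM, SATL1 and MTAP did not. MTAP, the phosphorylase that recycles the methylthioadenosine left over from spermidine and spermine synthesis, had at most 1 estimated count in any of the 30 libraries (0.0336 CPM). From co-culture, 9 of the 25 were higher and 4 lower in lineage 22 (beside 27% and 30% of all genes). Lineage 35 had 7 higher and 6 lower (beside 32.7% and 32.9%). Lineage 45 had 5 higher and 2 lower (beside 18.6% and 23.2%). MAT2A, which makes S-adenosylmethionine, fell in all 3 lineages. It went from 333, 327 and 281 CPM to 188, 168 and 179 CPM in lineage 22 (-0.81 ± 0.07, adjusted p = 4.31e-08). The change of MAT2A was -0.83 ± 0.07 in lineage 35 (6.89e-09) and -0.62 ± 0.07 in lineage 45 (2.65e-06).

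MYC rose in all 3 lineages, by 0.33 ± 0.07 in lineage 22 (adjusted p = 5.56e-04), 0.74 ± 0.07 in lineage 35 (1.60e-08) and 0.48 ± 0.07 in lineage 45 (2.46e-05). Its level was 118, 119 and 118 CPM in isolated 22 and 144, 148 and 154 CPM in co-culture 22, without overlap. EIF5A, the factor that carries the spermidine-derived residue hypusine, rose from 608, 677 and 602 CPM to 1061, 1166 and 1172 CPM in lineage 22 (0.85 ± 0.08, adjusted p = 7.59e-08), and by 0.29 in lineage 35 (0.00360) and 0.46 in lineage 45 (1.79e-04). The transporter gene ATP13A2, which exports polyamines from lysosomes, rose in lineage 22 (0.67 ± 0.08, adjusted p = 6.62e-07), fell in lineage 35 (-0.55 ± 0.08, 3.35e-06) and was not called in lineage 45 (0.03 ± 0.08, 0.784). In lineage 35 the agmatinase-like gene AGMAT fell from 4.16, 3.88 and 3.33 CPM to 0.477, 1.06 and 0.749 CPM (-2.31 ± 0.22, adjusted p = 1.79e-08), and it was not called in lineage 22 (0.23, 0.346) or 45 (-0.31, 0.215). ADI1, an enzyme of methionine recycling, rose by 0.50 ± 0.08 in lineage 45 (adjusted p = 3.88e-05) and by 0.36 in lineage 22 (5.69e-04), and was not called in lineage 35 (0.02, 0.830).

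The second question was how the isolated lineages differed from each other. Isolated lineage 22 was lower than both others in ARG2, ODC1 and SRM and higher in SAT1, while AMD1 was not called against either (0.23 against 35, adjusted p = 0.104, and 0.01 against 45, adjusted p = 0.943). SMS was lower than in 35 (-0.25, adjusted p = 0.00484) and not called against 45 (-0.13, adjusted p = 0.158). Against isolated 35, 8 members were called, 3 higher and 5 lower (beside 63.6% of all genes, 32.2% higher and 31.4% lower). ARG2 was lower by 2.26 ± 0.24 on the log2 scale (-2.26, adjusted p = 7.28e-08), SRM differed by -1.19 ± 0.09 (6.08e-10) and ODC1 by -0.56 ± 0.11 (1.76e-04). SAT1 was higher in 22 by 2.73 ± 0.17 (adjusted p = 1.14e-10), the largest log2 difference of any member in the 6 comparisons between lineages of the first table. The call of PAOX (0.49 ± 0.16, adjusted p = 0.0127) was lost without isolated 35 replicate 2 (0.0571). Neighbor medians in isolated 22 against 35 were 0.61 for PAOX, -0.34 for SRM, 0.18 for ARG2, 0.03 for ODC1 and 0.22 for SAT1.

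Against isolated 45, 5 members were called, 1 higher and 4 lower in lineage 22 (beside 38.4% of all genes, 18.6% higher and 19.8% lower). They were ARG2 (-1.95 ± 0.24, adjusted p = 2.30e-06), ODC1 (-0.93 ± 0.11, 1.52e-06), OAZ1 (-0.62 ± 0.08, 5.14e-06), SRM (-0.50 ± 0.09, 1.83e-04) and SAT1 (1.07 ± 0.15, 2.40e-05). OAZ1 was also lower in 22 than in 35 (-0.56 ± 0.08, adjusted p = 4.92e-06), and its neighbors on chromosome 19 had medians of -0.63 against 45 and -0.58 against 35, close to the values of OAZ1 itself. Between isolated 35 and 45, 4 members were called, 1 higher and 3 lower in 35 (beside 51.8% of all genes, 24.3% higher and 27.6% lower). SRM was higher in 35 (0.69 ± 0.09, adjusted p = 1.88e-06), while SAT1 (-1.66 ± 0.16, 1.01e-07) and SMOX (-0.40 ± 0.12, 0.00675) were lower. ODC1 was lower as well (-0.36 ± 0.11, adjusted p = 0.00879), a call lost without isolated 35 replicate 3 (0.0658) or isolated 45 replicate 3 (0.0585). Neighbor medians in isolated 35 against 45 were 0.40 for SRM, -0.01 for SAT1, -0.10 for SMOX and -0.04 for ODC1. The 3 comparisons share libraries.

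From co-culture, the members called in 22 against either other lineage were all lower. Against co-culture 35, 5 members were called lower in 22 (beside 31.1% of all genes, 15.6% higher and 15.5% lower). ARG2 differed by -0.91 ± 0.19 (adjusted p = 0.00113), AMD1 by -0.49 ± 0.12 (0.00378), OAZ1 by -0.43 ± 0.08 (4.43e-04) and ODC1 by -0.42 ± 0.11 (0.00610). The call of SRM (-0.30 ± 0.09, adjusted p = 0.0145) was lost without co-culture 22 replicate 1 (0.0578) or co-culture 35 replicate 1 (0.0909). SAT1 was not called between co-culture 22 and 35 (0.03 ± 0.15, adjusted p = 0.900), which overlapped, whereas isolated 22 and 35 had not.

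Against co-culture 45, 7 members were called lower in 22 (beside 25.2% of all genes, 13.2% higher and 12% lower). SMS (-0.77 ± 0.07, adjusted p = 2.90e-07), ARG2 (-1.06 ± 0.19, 3.83e-04) and ODC1 (-0.62 ± 0.11, 3.23e-04) kept their calls without any 1 library. The other 4 did not. SRM (-0.27 ± 0.09, adjusted p = 0.0328) was lost without co-culture 22 replicate 1 (0.105) or 3 (0.0735) or co-culture 45 replicate 2 (0.129) or 3 (0.0676). SAT1 (-0.52 ± 0.15, 0.0180) was lost without co-culture 22 replicate 2 (-0.32, adjusted p = 0.0615) or co-culture 45 replicate 1 (0.0974). SMOX (-0.36 ± 0.12, 0.0273) was lost without co-culture 22 replicate 1 (0.0962) or 2 (0.0530) or co-culture 45 replicate 2 (0.125). OAZ1 (-0.22 ± 0.08, 0.0495) was lost without any co-culture 22 library (0.0732, 0.0943 and 0.110) or without co-culture 45 replicate 1 (0.182) or 3 (0.0715). Without co-culture 22 replicate 2, 4 members were called. In co-culture 22 against 45 the neighbors of SMS and those of SAT1 both had a median of -0.53. The neighbor median was -0.19 for OAZ1 and 0.17 for SRM. Between co-culture 35 and 45, 2 members were called (beside 12.7% of all genes, 6.42% higher and 6.28% lower), SMS (-0.87 ± 0.07, adjusted p = 1.78e-07) and SAT1 (-0.55 ± 0.15, 0.0223). The neighbors of SMS and SAT1 had medians of -0.56 and -0.53 there. The call of SAT1 was lost, leaving 1 member, without co-culture 35 replicate 1 (0.0534) or 2 (0.0886) or co-culture 45 replicate 1 (0.107) or 3 (0.0607).

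Of the 25 other pathway genes tested, 3 were higher and 14 lower in isolated 22 than in isolated 35 (beside 32.2% and 31.4% of all genes). Against isolated 45 none was higher and 8 were lower (beside 18.6% and 19.8%). The 3 with the smallest p against 35 were ATP13A2 (-1.12 ± 0.08, adjusted p = 1.24e-10) and the genes of both hypusine enzymes, DHPS (-1.02 ± 0.09, 6.18e-09) and DOHH (-0.78 ± 0.10, 1.50e-06). The same genes led against 45, with DHPS at -0.84 ± 0.09 (adjusted p = 4.22e-07), DOHH at -0.83 ± 0.10 (2.41e-06) and ATP13A2 at -0.58 ± 0.08 (4.80e-06). DHPS was 29.9, 35.4 and 30.7 CPM in isolated 22, 63.6, 63.8 and 66.8 CPM in isolated 35 and 57.6, 56.0 and 57.9 CPM in isolated 45, so isolated 22 was below all libraries of the others. Between isolated 35 and 45, 7 were higher and 4 lower in 35 (beside 24.3% and 27.6% of all genes). Of the 25, OAT, which consumes ornithine, had the smallest p there (-0.74 ± 0.08, adjusted p = 9.68e-08). From co-culture 2 were higher and 7 lower in 22 than in 35 (beside 15.6% and 15.5% of all genes). AGMAT came first (1.67 ± 0.23, adjusted p = 1.40e-05). Against co-culture 45, none was higher and 7 were lower in 22 (beside 13.2% and 12%). ALDH18A1, which makes a precursor of ornithine and proline, came first (-0.46 ± 0.07, adjusted p = 6.45e-05). Between co-culture 35 and 45, none was higher and 3 were lower in 35 (beside 6.42% and 6.28%). AGMAT came first again (-1.76 ± 0.22, adjusted p = 1.84e-05).

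The genes most like ARG2 and SAT1 in pattern, the members with the widest ranges, were sought among 10710 genes of at least 5 CPM by Pearson correlation of log2 CPM over the 18 libraries of the first table. These values are descriptions over libraries that fall into 6 groups. ARG2 was most like RPL5, a ribosomal protein gene (r = 0.977), SCLY (0.967) and ATP5F1 (0.963). RPL5 averaged 517 CPM in isolated 22 and 1319 CPM in co-culture 45, the groups where ARG2 was lowest and highest. SAT1 was most like CD163L1 (0.947), MXI1 (0.947) and KLHL24 (0.944). KLHL24 averaged 14.9 CPM in isolated 22 and 3.65 CPM in isolated 35, the groups where SAT1 was highest and lowest.

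The third question was how lineages 03, 10 and 13 differed from Pop, all in isolation, in the second table. SAT1 was lower in all 3 lineages than in Pop, and it was the member with the widest range there. It was 70.5, 49.5 and 47.0 CPM in Pop, 33.3, 31.0 and 37.2 CPM in lineage 03, 14.3, 12.8 and 12.05 CPM in lineage 10 and 20.2, 15.6 and 23.7 CPM in lineage 13. None of the 4 groups overlapped, with lineage 10 lowest. SAT1 differed from Pop by -0.72 ± 0.16 in lineage 03 (adjusted p = 0.00248), -2.09 ± 0.17 in lineage 10 (7.65e-07) and -1.49 ± 0.17 in lineage 13 (9.27e-06). Pop replicate 1 was the highest Pop library for every member but AZIN1, and without it the SAT1 differences were -0.51, -1.89 and -1.30 (adjusted p = 0.00618, 2.01e-07 and 3.77e-06). Neighbors of SAT1 had medians of 0.21, -0.58 and 0.16.

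**Figure D3:**
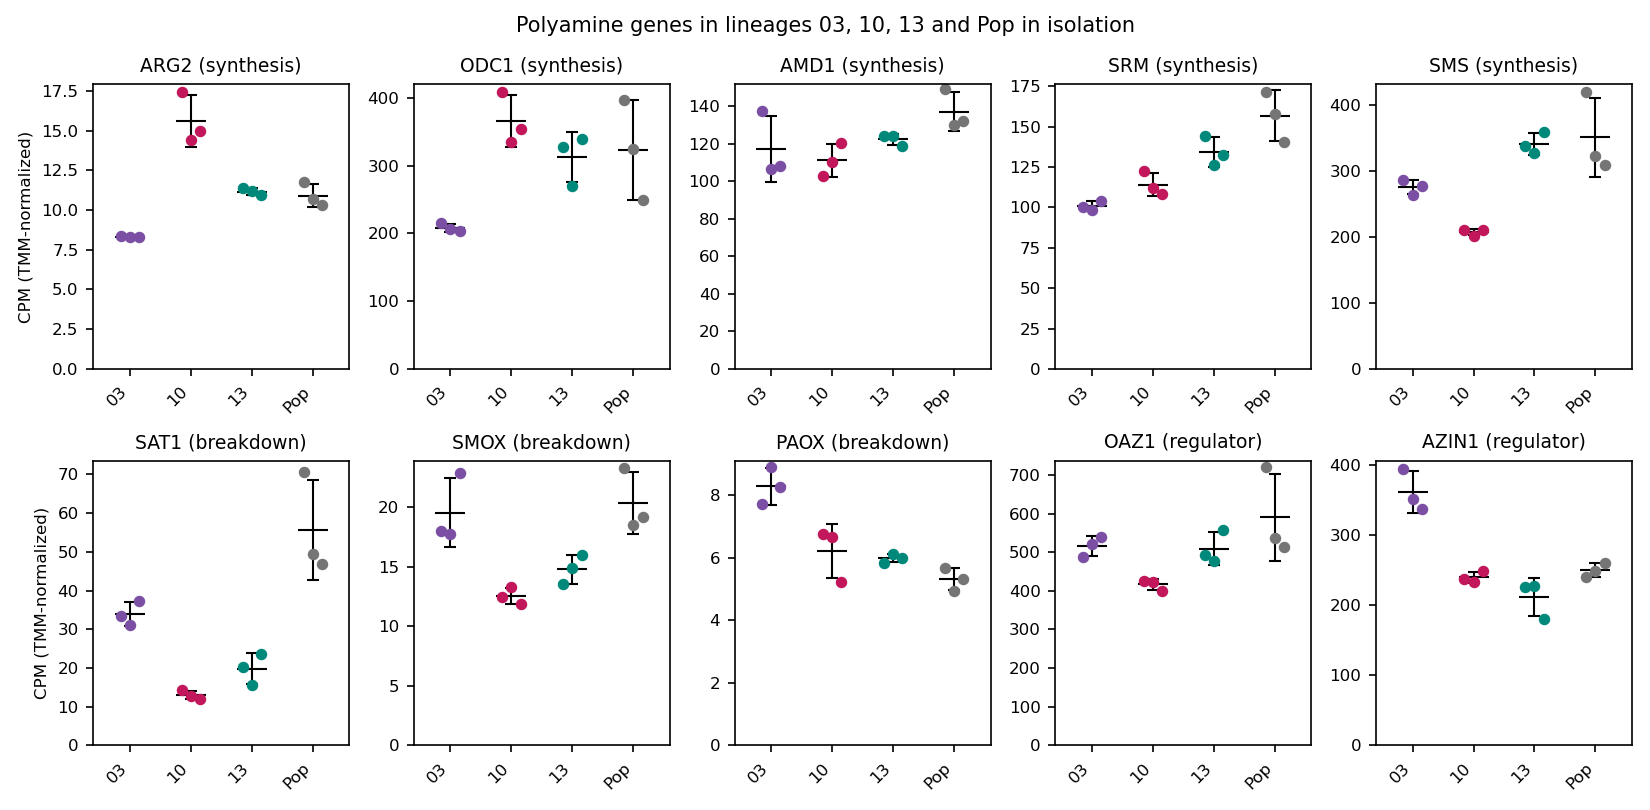
Levels (CPM, TMM-normalized, axes from 0) of the 10 polyamine genes in each library of lineages 03, 10, 13 and Pop in isolation. Points are libraries in replicate order, lines are means and error bars are SD (n = 3). SAT1 does not overlap between any of the 4 groups, with lineage 10 between 12.05 and 14.3 CPM and Pop between 47.0 and 70.5 CPM.

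Against Pop, 7 members were called in lineage 03, 2 higher and 5 lower (beside 48.7% of all genes, 23.2% higher and 25.5% lower). ODC1 was 215, 207 and 204 CPM in lineage 03 and 397, 325 and 249 CPM in Pop (-0.63 ± 0.14, adjusted p = 0.00245). ARG2 was 8.34, 8.28 and 8.29 CPM against 11.7, 10.7 and 10.3 CPM (-0.39 ± 0.10, adjusted p = 0.00406). SRM was 100.3, 98.6 and 104 CPM against 172, 158 and 140.5 CPM (-0.63 ± 0.08, adjusted p = 3.92e-05). All Pop libraries were above all of lineage 03 for these synthesis genes. Neighbor medians were -0.25 for ODC1, -0.13 for ARG2 and -0.12 for SRM. SMS was lower too (-0.35 ± 0.10, adjusted p = 0.0109), by -0.20 without Pop replicate 1 (adjusted p = 0.0186), and it was not called when the pair was fitted alone (0.0546). PAOX was higher in lineage 03, 7.72, 8.90 and 8.26 CPM against 5.66, 4.95 and 5.33 CPM (0.64 ± 0.12, adjusted p = 5.42e-04). AZIN1 was higher as well, 395, 352 and 338 CPM against 241, 249 and 261 CPM (0.53 ± 0.09, adjusted p = 3.93e-04), beside a neighbor median of 0.29.

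In lineage 10, 7 members were called against Pop, 1 higher and 6 lower (beside 42.3% of all genes, 18.8% higher and 23.5% lower). ARG2 was the higher one, at 17.4, 14.4 and 15.0 CPM (0.52 ± 0.09, adjusted p = 5.99e-04). SMS was 209, 202 and 209.8 CPM in lineage 10 and 419, 323 and 309 CPM in Pop (-0.76 ± 0.10, adjusted p = 5.04e-05), beside a neighbor median of -0.67. SMOX was 12.4, 13.3 and 11.9 CPM against 23.3, 18.5 and 19.2 CPM (-0.70 ± 0.12, adjusted p = 4.25e-04). OAZ1 (-0.50 ± 0.11, adjusted p = 0.00291) and SRM (-0.46 ± 0.08, 6.87e-04) were lower. AMD1 was called lower (-0.30 ± 0.10, adjusted p = 0.0254), a call lost without lineage 10 replicate 1 (0.108) or 2 (0.0716) or Pop replicate 1 (0.0653). ODC1 did not pass (0.18 ± 0.14, adjusted p = 0.327).

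In lineage 13, 4 members were called against Pop, all lower (beside 45.2% of all genes, 21.0% higher and 24.2% lower). SAT1 and SMOX (-0.46 ± 0.12, adjusted p = 0.00645) kept their calls without any 1 library. SRM (-0.22 ± 0.08, adjusted p = 0.0445) lost its call without lineage 13 replicate 2 (0.162) or 3 (0.1000) or Pop replicate 1 (0.0875) or 2 (0.100). AZIN1 (-0.24 ± 0.09, 0.0479) lost its call without lineage 13 replicate 3 (-0.14, adjusted p = 0.194) or Pop replicate 2 (0.0921) or 3 (0.112), and 2 members remained called without lineage 13 replicate 3 or Pop replicate 2. ARG2 (0.03 ± 0.09), ODC1 (-0.05 ± 0.14) and SMS (-0.04 ± 0.10) did not pass, with adjusted p of 0.807, 0.805 and 0.777. These 3 comparisons share the Pop libraries.

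**Figure D4:**
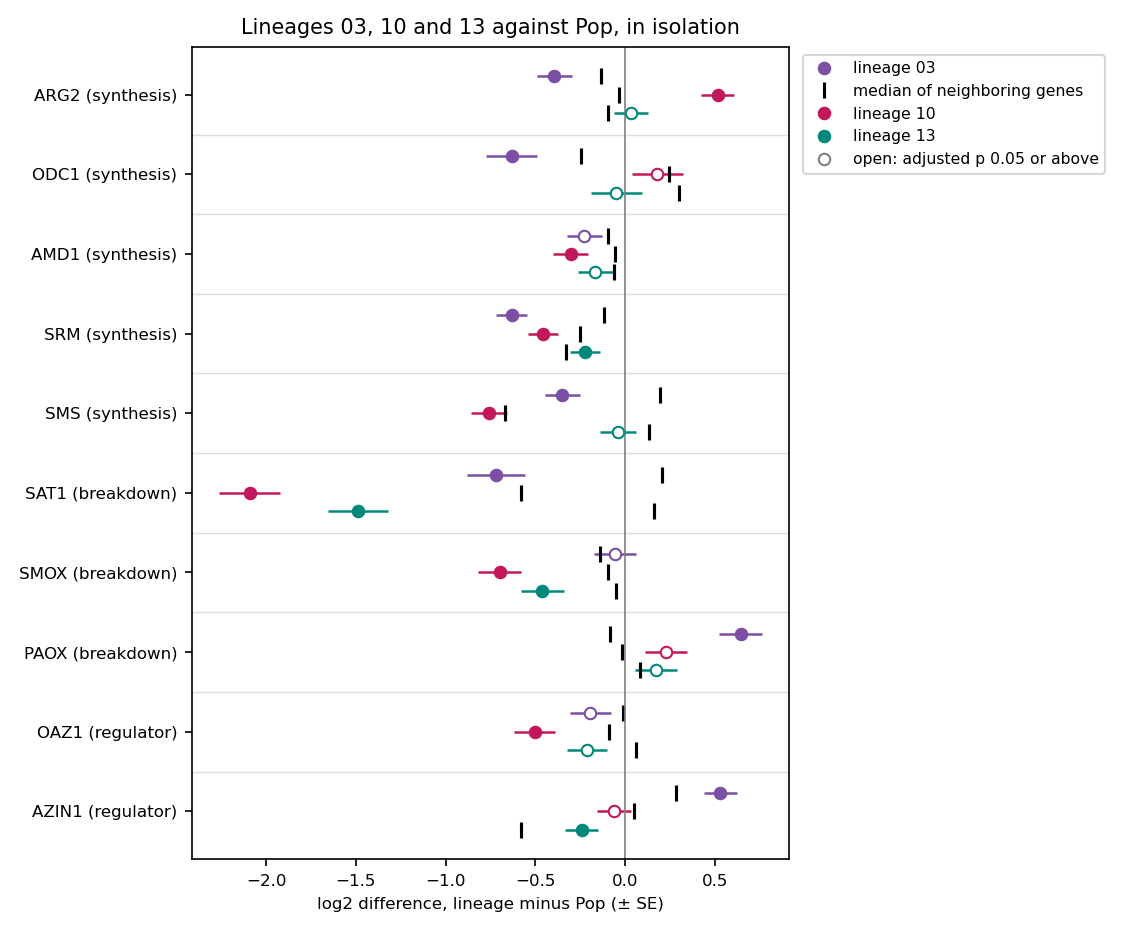
Log2 difference of lineages 03, 10 and 13 from Pop for each polyamine gene, with SE from the edgeR fit (n = 3 per group); filled circles passed an adjusted p of 0.05 and open ones did not, and black ticks are medians of the nearest tested protein-coding genes. SAT1 lies left of 0 in all 3 lineages, at -0.72, -2.09 and -1.49.

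Among the single lineages, 8 members differed between 03 and 10, 6 higher and 2 lower in 03 (beside 51.4% of all genes, 26.4% higher and 25% lower). SAT1 was higher in 03 (1.38 ± 0.17, adjusted p = 1.62e-05), as were SMOX (0.64 ± 0.12, 5.94e-04), AZIN1 (0.59 ± 0.09, 1.36e-04) and PAOX (0.42 ± 0.12, 0.00883), while ARG2 (-0.91 ± 0.09, 3.43e-06) and ODC1 (-0.81 ± 0.14, 3.40e-04) were lower. Neighbor medians there were 0.52 for SAT1, 0.04 for SMOX, 0.31 for AZIN1, 0.01 for PAOX, -0.05 for ARG2 and -0.48 for ODC1. OAZ1 was called higher (0.31 ± 0.11, adjusted p = 0.0345), but the call held only without lineage 03 replicate 1. It was lost without lineage 03 replicate 2 (0.0822) or 3 (0.0995) or any lineage 10 library (0.0683, 0.0704 and 0.107). Between 03 and 13, 8 members differed, 4 each way (beside 53.2%, 26.1% higher and 27.1% lower). AZIN1 was higher in 03 (0.77 ± 0.09, adjusted p = 1.28e-05), beside a neighbor median of 0.93. SAT1 was higher by 0.77 ± 0.17 (0.00146), beside -0.07. ODC1 was lower (-0.58 ± 0.14, adjusted p = 0.00360), beside a neighbor median of -0.59. SMS (-0.31 ± 0.10, adjusted p = 0.0185) lost its call without lineage 03 replicate 2 (0.0694) or lineage 13 replicate 3 (0.0627). SMOX (0.40 ± 0.12, 0.0119) lost its call without lineage 03 replicate 3 (0.0657) or lineage 13 replicate 1 (0.0531).

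Between 10 and 13, 4 members differed, 1 higher and 3 lower in 10 (beside 34.6% of all genes, 16.6% higher and 18% lower). ARG2 was higher in 10 (0.48 ± 0.09, adjusted p = 0.00118) and SMS lower (-0.72 ± 0.10, 9.85e-05). SRM (-0.24 ± 0.08, adjusted p = 0.0439) lost its call without lineage 10 replicate 2 (0.122) or 3 (0.160) or lineage 13 replicate 1 (0.169) or 3 (0.0722). SAT1 (-0.60 ± 0.17, 0.0140) lost its call without lineage 10 replicate 3 (0.0595) or lineage 13 replicate 3 (0.0689), and 2 members remained called without either of these libraries. Between 10 and 13 the neighbors of SMS and SAT1 had medians of -0.77 and -0.69, close to the values of SMS and SAT1 themselves. Those of ARG2 and SRM had 0.02 and 0.04. AMD1 passed in none of the 3 comparisons among single lineages.

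Of the 25 other pathway genes, 5 were higher and 4 lower in lineage 03 than in Pop (beside 23.2% and 25.5% of all genes). ATP13A2 came first (-0.66 ± 0.10, adjusted p = 1.02e-04). In lineage 10, 6 were higher and 1 lower (beside 18.8% and 23.5%). MAT2A (0.43 ± 0.06, adjusted p = 1.47e-04) and MYC (0.51 ± 0.09, 3.69e-04) led. In lineage 13, 4 were higher and 1 lower (beside 21.0% and 24.2%). SLC3A2, a subunit of amino acid transporters that also takes part in polyamine transport, came first (0.62 ± 0.08, adjusted p = 5.59e-05). SLC3A2 was 466, 423 and 411 CPM in lineage 13 and 298, 282 and 267 CPM in Pop, without overlap. Lineage 03 had the lowest SLC3A2 libraries (213, 191 and 221 CPM) and differed from 13 by -1.06 ± 0.09 (adjusted p = 3.09e-07). Counts among the single lineages were 3 higher and 11 lower in 03 than in 10 (beside 26.4% and 25% of all genes). Against 13, 5 were higher and 13 lower in 03 (beside 26.1% and 27.1%). Between 10 and 13, 4 differed each way (beside 16.6% and 18%), and MAT2B had the smallest p.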

How the data were processed

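Stranded mRNA libraries of 30 samples were sequenced in pairs of 75 nt reads from 500 ng of RNA, per the labels' protocols. STAR 2.6.1d, Salmon 1.4.0 and GRCh38 (hg38) are named in the submitters' processing notes. The scaling tool, the annotation, trimming, filters and the strand setting are not given in the sources used here. The authors deposited estimated counts scaled by gene length, with no correction for library size, as 2 tables of 26475 genes made apart from each other.

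Here the estimated counts were rounded and fitted in edgeR 4.0.16 under R 4.3.3 (with limma 3.58.1). The filter was filterByExpr, normalization was TMM, and the quasi-likelihood fit was robust and used every group in the table, with Benjamini-Hochberg adjustment over all genes tested. Calls use an adjusted p of 0.05. Standard errors are the log2 change over the root of F. TMM factors ran from 0.926 to 1.07 and from 0.946 to 1.04 in the 2 tables, and the coefficient of variation between replicates was 10.4% in each. No 2 libraries of a group agreed within sampling noise (chi-square per gene from 5.09 to 73.7, highest within Pop). Positions and neighbors come from GENCODE v29. Comparisons stay within a table.

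The members, the list of 29 other pathway genes, the marker lists and the tests were chosen with earlier results of these data known. Named genes were all members and, of the other pathway genes, up to 3 called genes with the smallest p in a comparison described. The calculation was tested on simulated data. Alternatives were RLE normalization, no filter, a stricter filter (5 CPM in 3 libraries), DESeq2 1.42.0, a replicate block, the compared groups alone, no lineage 35 libraries and each library left out.

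The labels do not say that replicate numbers pair samples. Deviations from group means correlated above 0.1 for all 3 same-numbered pairs only between co-culture 22 and co-culture 45 (0.36, 0.25 and 0.17), so the numbers were taken to pair these 2 groups, from the data alone. The replicate block left 7 members called there, but it fitted replicate effects common to all 6 groups of the first table. It was therefore no model of a pairing of these 2 groups only, and no such model was run.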

Additional observations from a re-analysis of the deposited data

Results flagged for a closer look

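For 7 polyamine genes the test of the interaction found unlike changes with co-culture in lineages 22, 35 and 45 (edgeR's quasi-likelihood F test, Benjamini-Hochberg adjusted p over 14570 genes), beside 55.2% of all genes. The adjusted p was 5.98e-08 for SAT1, 3.42e-07 for SMS, 1.94e-05 for SRM, 0.00374 for ARG2, 0.00436 for AMD1, 0.0198 for OAZ1 and 0.0212 for SMOX. SAT1, SRM, SMS and AMD1 were called higher in at least 1 lineage and lower in at least 1 other, whereas ARG2 and OAZ1 were called higher in all 3 by different amounts. The libraries labelled 35 enter this test, and their co-culture group correlated best with isolated 45. Groups of 3 libraries are too small for the test of a single outlying sample.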

How the results depend on the processing

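Of 757 values of single members tallied under settings other than leaving out a library, 729 kept their direction and their side of the threshold. Another 21 lost a call and 7 changed sign. Outside co-culture against isolation and the interaction, only members called in the main fit were tallied. A call gained there could not enter, here or with 1 library left out. With the compared groups alone, 9 members were called for isolated 22 against 35 (8 in the main fit). For isolated 22 against 45 it was 6 (5), for 03 against 10 it was 9 (8) and for 10 against 13 it was 5 (4). The sign changes were all of AZIN1, which was never called there: in lineage 22 it was 0.0209 with RLE normalization, 0.00696 with no filter, 0.0208 with DESeq2, 0.0121 with the compared groups alone and 0.0192 without lineage 35 libraries, and in lineage 45 it was -0.0148 with the stricter filter and -0.0170 with the replicate block. With 1 library left out, 7 values changed sign: AZIN1 ran from -0.107 to 0.147 in lineage 22 and from -0.0865 to 0.148 in lineage 45, and SMOX from -0.00759 to 0.0975 in lineage 35. For co-culture 22 against 45, 7 members were called, but 3 with the compared groups alone (1805 genes against 3669) and 4 without lineage 35 libraries, and 4 to 7 with a library left out. For lineage 13 against Pop, 4 were called, but 2 with no filter, 2 with the compared groups alone and 2 to 4 with a library left out. The count was 1 to 2 for co-culture 35 against 45 and 2 to 4 for lineage 10 against 13 with a library left out. The count of members called higher in all lineages was 3 in every setting run with lineage 35. It was 4 without lineage 35 libraries, where only 22 and 45 are counted. The main fit also had 4 higher in both of these, beside 1870 of 14570 genes. The replicate block ended the calls of AMD1 in the response of 35 against 45 (0.44, adjusted p = 0.0520) and AZIN1 in 13 against Pop (-0.25, adjusted p = 0.0594), added 1 member in co-culture 22 against 35 (6 against 5) and changed no other count. The causes were not tested. ARG2 (0.382 to 6.47 CPM) and PAOX (3.08 to 6.26 CPM) had the lowest counts of the members in the first table. In the second table ARG2 was 8.28 to 17.4 CPM and PAOX 4.95 to 8.90 CPM. Small differences such as those of AMD1 and AZIN1 rest on 3 libraries a group.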
